A study of Homo sapiens with 12 samples.

Results

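The RAS subfamily genes HRAS, NRAS, RRAS, RRAS2 and MRAS were followed in RD cells whose NT5E mRNA was lowered by an inducible hairpin. They were taken by symbol from the deposited count table, which held all 5 among its 26485 gene symbols. RD is a cell line derived from a human rhabdomyosarcoma of the fusion-negative kind. Such tumours resemble skeletal muscle that has stopped short of maturing, and RD is known for carrying a mutant NRAS. The counts do not separate mutant from normal NRAS mRNA. Every library came from cells that carry a hairpin switched on by doxycycline. It targets NT5E, which encodes CD73, a surface enzyme that makes adenosine from AMP. There were 2 constructs, called ish and ish2. The 4 groups were ish with 10 ng/mL doxycycline (Dox), ish without Dox, ish2 with Dox and ish2 without Dox, at 3 libraries each and 96 h of treatment. Since no library came from a non-targeting hairpin given Dox, effects of the drug, of hairpin processing and of lower NT5E cannot be told apart. Nothing in the labels ties replicates to separate cultures, and the p-values therefore measure only the spread between these libraries, which may be technical.

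RAS proteins are membrane-bound switches that are active when they hold GTP and inactive when they hold GDP. Exchange factors load them with GTP, GTPase-activating proteins turn them off, and lipid tails attached at the carboxyl end carry them to membranes. HRAS and NRAS are classical RAS proteins that pass growth factor signals to the RAF kinases and to PI3K. RRAS acts on integrins and cell adhesion, RRAS2 (also called TC21) is a transforming relative of RRAS, and MRAS (muscle RAS) joins SHOC2 and the phosphatase PP1 in a complex that activates RAF. In rhabdomyosarcoma, mutant RAS is known for holding back muscle differentiation.

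The mRNAs of the 5 genes have little exact sequence in common. The longest run of identical bases between any pair of members was 23, between RRAS and RRAS2, against a read length of 75. No 75-base stretch of the HRAS, NRAS, RRAS or MRAS reference mRNA occurred in a transcript of another gene. In RRAS2, 414 of 1516 bases (27.3%) lay in such stretches, which were also found in transcripts of SCP2 and AL445183.3, so RRAS2 counts are less certain than the others.

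The libraries held 30250071 to 32692207 gene counts in ish with Dox and 30137434 to 31926254 in ish without Dox, and 26957197 to 31249928 in ish2 with Dox and 26566603 to 27789289 in ish2 without Dox. NT5E fell with Dox in each construct, to 1.94, 1.23 and 1.54 CPM (read counts scaled to the library's total over genes and to its TMM factor) in ish, against 14.9, 18.0 and 17.3 CPM without Dox, and to 14.5, 15.2 and 14.1 CPM in ish2, against 24.1, 23.5 and 22.1 CPM without Dox. The fall was 10.7-fold in ish (edgeR adjusted p = 3.31e-25) and 1.59-fold in ish2 (adjusted p = 4.62e-11). Of 8 markers of myogenic rhabdomyosarcoma cells, 7 had at least 477 counts in every library, and MYF5 had at most 1. The 11 markers of blood, epithelial, endothelial and liver cells had 0 to 14 counts.

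In ish, Dox changed all 5 genes, in opposite directions. NRAS fell 3.92-fold and RRAS 3.4-fold, HRAS fell 1.34-fold, RRAS2 rose 1.72-fold and MRAS rose 9.54-fold. All 5 passed the filter on low counts and the edgeR test, but so did 78.6% of the 15206 tested genes, so the count of calls says little about the family. Of tested genes, 39.1% rose and 39.5% fell. Past 2-fold stood NRAS, RRAS and MRAS, 3 of 5, against 17.8% of tested genes (7.28% higher and 10.5% lower). The Dox and no-Dox libraries of ish did not overlap for any member, as was the case for 80.6% of tested genes. Since these are bulk cultures, more RNA per cell and more cells of a given state cannot be told apart.

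NRAS read 34.3, 33.1 and 34.0 CPM in the 3 ish libraries with Dox, and 133.7, 129.7 and 134.0 CPM in the 3 without. All Dox libraries lay far below the lowest library without Dox, and the replicates of each group lay close together. The log2 fold change was -1.97 (SE 0.03, n = 3 against 3, adjusted p = 6.16e-35), and 2.51% of tested genes fell at least as far. NRAS lies on the minus strand of chromosome 1 (GRCh38, 114704469 to 114716894), and the 7 exons of its reference mRNA add up to 4449 bases.

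MRAS read 184.7, 173.1 and 176.7 CPM in ish with Dox and 18.2, 17.7 and 20.1 CPM without it. It was the member with the largest change in ish, and it had the highest CPM of the 5 with Dox and the lowest without. The log2 fold change was 3.25 (SE 0.04, adjusted p = 2.03e-38), and 0.802% of tested genes rose at least as far. Of the 7 muscle markers with reads in every library, 4 averaged higher in ish with Dox than without, namely MYOG (654.4 CPM against 106.2), MYOD1 (338.6 against 112.0), DES (538.9 against 305.4) and CDH15 (377.2 against 188.4). CHRNA1 (823.8 against 999.3) and FGFR4 (212.4 against 429.9) averaged lower, and PAX7 read 90.8 CPM with Dox against 91 without. MYOG and MYOD1 are transcription factors of muscle differentiation. The part of these markers in the change of MRAS was not tested. MRAS lies on the plus strand of chromosome 3 (138347648 to 138405534), with 6 exons and 4538 bases in its reference mRNA.

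RefSeq lists 3 start regions for MRAS (GRCh38.p14). The most upstream of them, chr3:138348329-138348628 on the plus strand, is shown because MRAS had the largest change and this region holds the word marked below. Capitals mark CTATTTTTAG, a form of the MEF2 motif. The other MRAS start regions hold no match to that motif. MEF2 factors are muscle transcription factors.
MRAS: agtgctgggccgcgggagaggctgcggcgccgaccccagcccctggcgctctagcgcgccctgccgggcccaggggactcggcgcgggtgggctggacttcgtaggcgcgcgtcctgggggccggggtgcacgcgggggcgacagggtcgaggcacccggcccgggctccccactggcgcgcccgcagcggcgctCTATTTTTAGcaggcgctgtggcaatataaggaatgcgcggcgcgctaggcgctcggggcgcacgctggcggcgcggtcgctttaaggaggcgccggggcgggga
This word was taken from the sequence after reading it, so its occurrence here was fixed in advance. Searched on both strands, it occurred in 50 of 35116 RefSeq start regions of the same length (0.142%), and the full MEF2 motif, which includes it, in 2.99%. The E-box CANNTG (in 68.7% of start regions), its form CAGCTG (17.9%) and TGACGTCA (1.85%) were also searched and did not occur in this one. The match describes the sequence and is not evidence of binding.

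RRAS read 8.86, 10.7 and 10.2 CPM in ish with Dox and 32, 35.3 and 34.2 CPM without Dox. All 3 libraries with Dox stood well below the lowest library without it, and the log2 fold change was -1.77 (SE 0.06, adjusted p = 7.17e-25). RRAS lies on the minus strand of chromosome 19 (49635292 to 49640201), with 6 exons and 1044 bases in its reference mRNA. SCAF1, on the opposite strand 1924 bases away, was not called in ish (log2 fold change -0.03, adjusted p = 0.34). In ish2 it fell (log2 fold change -0.22, SE 0.03, adjusted p = 5.76e-07), where RRAS had a value of -0.18.

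RRAS2, the member that shares the longest identical run with RRAS, went the other way. It read 41.1, 36.5 and 38.5 CPM in ish with Dox and 23.0, 20.8 and 23.9 CPM without it, a log2 fold change of 0.78 (SE 0.05, adjusted p = 1.9e-16). SCP2, a sterol carrier gene whose transcripts hold part of the RRAS2 sequence, also rose (log2 fold change 0.62, SE 0.03, adjusted p = 1.78e-19), and its part in the RRAS2 count was not tested. RRAS2 lies on the minus strand of chromosome 11 (14277926 to 14364506), and its reference mRNA has 6 exons.

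HRAS had the smallest change of the 5 in ish. It read 22.9, 23.0 and 24.7 CPM with Dox and 31.0, 32 and 31.7 CPM without, with a log2 fold change of -0.42 (SE 0.04, adjusted p = 1.27e-10). Of the tested genes, 26.1% fell at least as far. HRAS lies on the minus strand of chromosome 11 (532242 to 537287), with 5 exons and 1151 bases in its reference mRNA. LRRC56, on the opposite strand with a gap of 240 bases, read 3.31, 3.26 and 3.39 CPM with Dox and 7.01, 7.34 and 8.14 CPM without, a larger fall than that of HRAS (log2 fold change -1.18, SE 0.10, adjusted p = 8.87e-13). In ish2 LRRC56 fell as well (log2 fold change -0.83, SE 0.11, adjusted p = 1.76e-08), where HRAS rose.

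**Figure D1:**
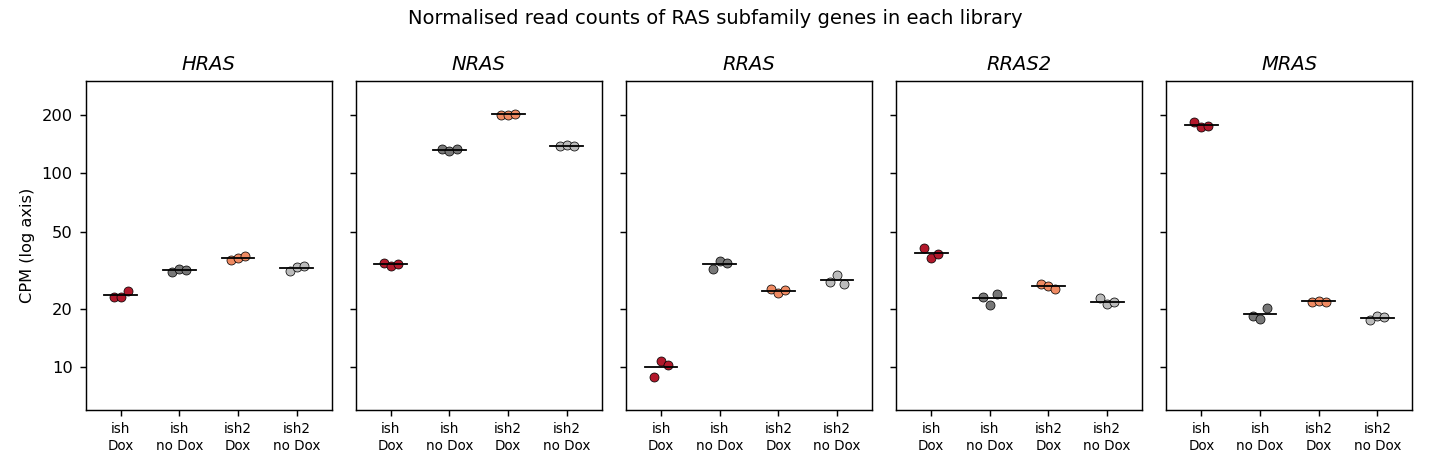
Normalised read counts (CPM, log axis) of the 5 genes in each of the 12 libraries, with ish and ish2, Dox and no Dox, along the horizontal axis. Points are libraries and lines are group means; NRAS averaged 33.8 CPM in ish with Dox and 132.5 without, whereas MRAS averaged 178.2 with Dox and 18.7 without.

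In ish2 the family changed less, and NRAS rose where it had fallen in ish. NRAS rose 1.45-fold, RRAS2 1.19-fold, MRAS 1.21-fold and HRAS 1.12-fold, and RRAS fell 1.14-fold. All 5 were called, beside 65% of all tested genes (33.9% higher and 31.1% lower), and all 5 were thus called in both constructs, as were 54.1% of tested genes. None of the 5 passed 2-fold in ish2, which 6.14% of tested genes did. The Dox and no-Dox libraries of ish2 did not overlap for any member, as was the case for 66.6% of tested genes.

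NRAS read 201.0, 200.4 and 203.8 CPM in ish2 with Dox and 138.3, 140.1 and 138.2 CPM without it. Every library with Dox stood above every library without it, and the log2 fold change was 0.54 (SE 0.03, adjusted p = 1.88e-19). In ish2, 10.9% of tested genes rose at least as far as NRAS, the furthest out of the 5 members. HRAS, the other classical member, read 35.8, 36.3 and 37.3 CPM with Dox and 31.4, 32.9 and 33.0 CPM without (log2 fold change 0.17, SE 0.04, adjusted p = 0.000792).

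RRAS read 25.2, 24.0 and 24.8 CPM in ish2 with Dox and 27.4, 29.9 and 26.9 CPM without Dox. It was the only member that fell in ish2 (log2 fold change -0.18, SE 0.05, adjusted p = 0.00317), and the only one that fell in both constructs. RRAS2 read 26.7, 26.3 and 25.1 CPM with Dox and 22.6, 21.1 and 21.5 CPM without (log2 fold change 0.26, SE 0.06, adjusted p = 0.000128). MRAS read 21.6, 22.0 and 21.7 CPM with Dox and 17.5, 18.3 and 18.1 CPM without (log2 fold change 0.28, SE 0.05, adjusted p = 2.71e-05). RRAS2 and MRAS therefore rose in both constructs, by much less in ish2. SCP2, which shares sequence with RRAS2, also rose in ish2 (log2 fold change 0.15, SE 0.03, adjusted p = 0.000197). The part of SCP2 in the RRAS2 count was not tested here either. Of the same muscle markers in ish2, DES (494.4 CPM with Dox against 315.7 without), MYOD1 (150.4 against 133.6) and CHRNA1 (1152.7 against 1135.9) averaged higher with Dox, and MYOG (17.6 against 82.9), PAX7 (44.3 against 83.4), CDH15 (132.8 against 198.4) and FGFR4 (250.4 against 389.3) averaged lower.

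**Figure D2:**
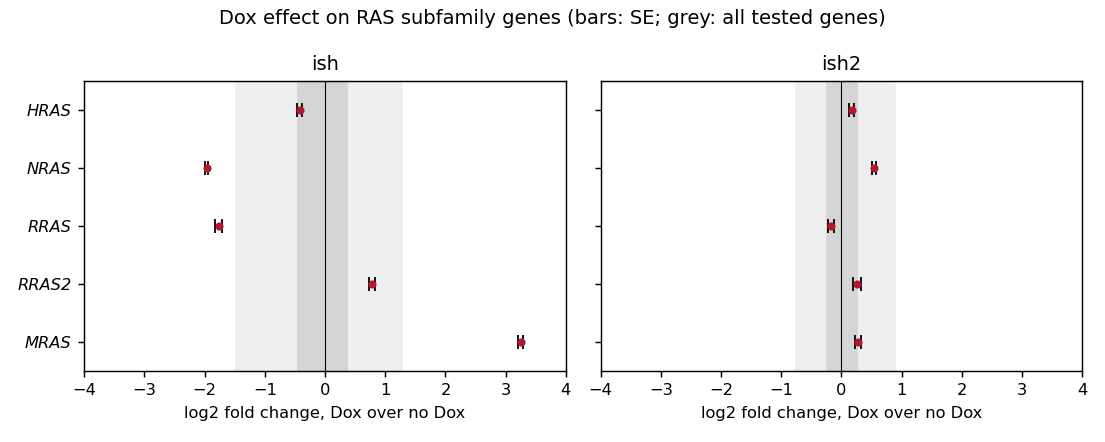
Log2 fold change of Dox over no Dox for the 5 genes in ish (left) and ish2 (right), with SE as bars. Dark grey spans the middle 50% of all tested genes and light grey the 5th to 95th percentile; in ish, NRAS (-1.97), RRAS (-1.77) and MRAS (3.25) lie outside the light band, and in ish2 all 5 lie inside it.

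The difference between the Dox effects, ish2 minus ish, was tested in the same edgeR fit. It was called for all 5 genes, beside 72.6% of tested genes (37.4% higher and 35.2% lower). The difference was 2.51 on the log2 scale for NRAS (SE 0.04, adjusted p = 4.67e-34) and 1.58 for RRAS (SE 0.08, adjusted p = 4.25e-19). It was 0.59 for HRAS (SE 0.06, adjusted p = 1.24e-10), -0.52 for RRAS2 (SE 0.08, adjusted p = 1.29e-07) and -2.98 for MRAS (SE 0.07, adjusted p = 1.27e-29). NRAS and HRAS fell in ish and rose in ish2, a pattern called in 14.1% of tested genes. NT5E fell much further in ish than in ish2, and how far that gap bears on the differences was not tested.

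Without Dox the 5 genes lay close between the lines. NT5E itself was higher in ish2, at 23.3 CPM against 16.7 in ish (log2 fold change 0.47, SE 0.06, adjusted p = 6.14e-07). RRAS was lower in ish2 than in ish, at 27.4, 29.9 and 26.9 CPM against 32, 35.3 and 34.2 CPM (log2 fold change -0.27, SE 0.05, adjusted p = 0.000108), and it was the 1 member called, beside 26.1% of tested genes. NRAS averaged 138.9 ± 1.08 CPM in ish2 and 132.5 ± 2.37 CPM in ish (SD, n = 3 each), and it was not called (log2 fold change 0.07, SE 0.03, adjusted p = 0.0574). It was called in edgeR with DESeq2-style size factors (adjusted p = 0.0243) or without ish2 Dox replicate 3 (adjusted p = 0.0408). DESeq2 itself did not call it (adjusted p = 0.0502). HRAS (0.04, SE 0.04), RRAS2 (-0.05, SE 0.06) and MRAS (-0.06, SE 0.05) were not called either. The ish and ish2 libraries without Dox did not overlap for RRAS and NRAS, as was the case for 38.2% of tested genes.

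To compare members with each other, CPM were divided by the length of the reference mRNA in kilobases. In ish without Dox, the order was RRAS (32.4 ± 1.61 CPM per kilobase, SD, n = 3), NRAS (29.8 ± 0.534), HRAS (27.4 ± 0.454), RRAS2 (14.9 ± 1.05) and MRAS (4.11 ± 0.272). With Dox it was MRAS (39.3 ± 1.31), RRAS2 (25.5 ± 1.51), HRAS (20.5 ± 0.838), RRAS (9.52 ± 0.927) and NRAS (7.60 ± 0.134). The least abundant member without Dox was the most abundant with Dox, and NRAS stood last. In both groups no library of a member overlapped the next member in the order. With the length of all annotated exons in place of the reference mRNA, MRAS still stood first and NRAS last with Dox, but HRAS passed RRAS2, and NRAS passed RRAS without Dox.

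In ish2 NRAS stood first with Dox (45.3 ± 0.407 CPM per kilobase) and without it (31.2 ± 0.243). HRAS followed at 31.7 ± 0.642 with Dox and 28.2 ± 0.812 without, then RRAS at 23.6 ± 0.572 with Dox and 26.9 ± 1.53 without. HRAS and RRAS overlapped in ish2 without Dox, so their order there is not set apart from the spread. RRAS2 (17.2 ± 0.56 with Dox and 14.3 ± 0.492 without) and MRAS (4.80 ± 0.0524 with Dox and 3.96 ± 0.0886 without) came last in both. With the length of all annotated exons, RRAS stood above HRAS in ish2, at 21.3 against 19.7 with Dox and at 24.2 against 17.5 without.

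The makeup of the family changed far more in ish than its sum. The 5 genes summed to 103.9, 99.9 and 103.2 CPM per kilobase in ish with Dox and to 106.8, 108.4 and 110.6 without, a ratio of 0.943, or 0.797 with the length of all annotated exons. Within that sum, MRAS made up 39.2%, 38.2% and 37.7% with Dox and 3.75%, 3.61% and 4% without. NRAS made up 7.41%, 7.45% and 7.41% with Dox and 28.1%, 26.9% and 27.2% without, and RRAS made up 9.31% on average with Dox and 29.8% without. The share of RRAS2 was 24.9% with Dox and 13.7% without, and that of HRAS 20% with Dox and 25.2% without. With the length of all annotated exons, the HRAS share was 18.7% with Dox and 19.9% without, a change of -1.27 percentage points against -5.27 with the reference mRNA. None of these 5 shares overlapped between the groups, and each gave the exact two-sided permutation p of 0.1, the smallest that 3 libraries against 3 allow. The 5 shares of a library add up to the whole, so a gain in any member lowers the others. They are therefore not 5 separate results. In CPM, 80.6% of tested genes did not overlap between these groups.

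The classical pair, HRAS and NRAS, was also summed apart from the rest. It came to 28 ± 0.886 CPM per kilobase in ish with Dox and 57.2 ± 0.392 without (SD, n = 3 each). RRAS, RRAS2 and MRAS together came to 74.3 ± 1.89 with Dox and 51.4 ± 1.57 without. That second sum joins RRAS, which fell, to RRAS2 and MRAS, which rose. The classical pair thus held 27.4% of the sum with Dox and 52.7% without.

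In ish2 the sum was 122.8, 121.8 and 123.2 CPM per kilobase with Dox and 103.3, 106.7 and 103.7 without, a ratio of 1.17. NRAS made up 36.8%, 37.0% and 37.2% with Dox and 30.1%, 29.5% and 30.0% without. RRAS averaged 19.3% with Dox and 25.7% without, HRAS 25.8% with Dox and 26.9% without, and MRAS 3.91% with Dox and 3.79% without. These 4 shares did not overlap between groups (exact permutation p = 0.1, the smallest possible), whereas that of RRAS2 did, at 14.0% with Dox and 13.7% without (exact permutation p = 0.7). In CPM, 66.6% of tested genes did not overlap between the ish2 groups. As in ish, the shares of a library add up to the whole and are not separate results. The HRAS share fell although HRAS itself rose in CPM. With the length of all annotated exons, the MRAS share was 3.52% with Dox and 3.44% without, and the exact permutation p was 0.3. RRAS, RRAS2 and MRAS together came to 45.6 ± 0.818 with Dox and 45.2 ± 1.34 without, and HRAS and NRAS to 77.0 ± 1.02 with Dox and 59.4 ± 0.934 without.

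**Figure D3:**
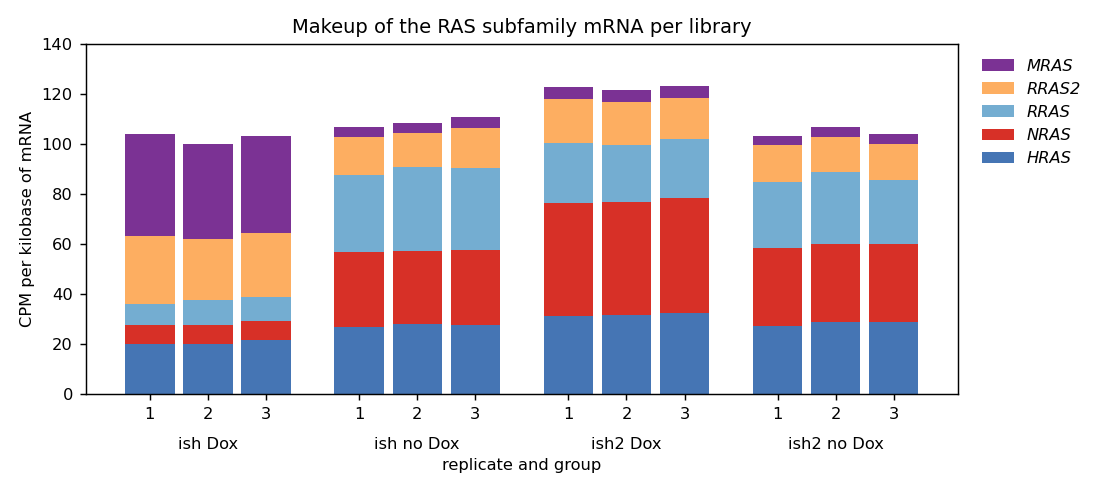
CPM per kilobase of reference mRNA, stacked over the 5 genes, for each library (replicates 1 to 3 of each group). Bars in ish reach 99.9 to 103.9 with Dox and 106.8 to 110.6 without, while the MRAS segment is 38.4% of the bar on average with Dox and 3.78% without.

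Genes that act on RAS proteins, with them or below them were taken as 6 lists, of which 73 of 88 genes passed the filter on low counts. Over all tested genes, 39.1% rose and 39.5% fell in ish, with a median log2 fold change of -0.01 and an upper quartile of 0.37, and 33.9% rose and 31.1% fell in ish2, with a median of 0.01 and an upper quartile of 0.25. In ish2, the medians of the other RAS family GTPases (0.25) and of the lipid modification list (0.32) stood at or above that quartile, and the other 4 list medians lay between -0.07 and 0.05. Over all 6 lists, 12 of 73 genes (16.4%) fell in ish and rose in ish2 as NRAS did, beside 14.1% of all tested genes, and 8 (11%) did the reverse, beside 12%. Of 22 other RAS family GTPases tested, 9 rose and 10 fell in ish (median log2 fold change 0.03), and 12 rose and 4 fell in ish2 (median 0.25), beside 39.1% higher and 39.5% lower over all tested genes in ish and 33.9% and 31.1% in ish2. RALB, a GTPase that directs vesicle traffic below RAS, averaged 34.1 CPM in ish with Dox and 95.3 without (log2 fold change -1.48, SE 0.04), and 106.4 CPM in ish2 with Dox and 90.6 without (0.23, SE 0.03). RHEBL1, a relative of the mTOR activator RHEB, fell by 0.99 in ish and rose by 0.80 in ish2. In this list 7 of 22 genes fell in ish and rose in ish2, and 3 did the reverse. RIT1 (0.53 in ish, 0.68 in ish2) and NKIRAS1, an inhibitor of NF-kB signalling (0.99 and 0.91), rose in both. DIRAS1, which antagonises RAS signalling, fell in both (-0.89 and -0.30), and NKIRAS2 rose by 0.24 in ish and fell by 0.38 in ish2.

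Among the 5 exchange factors tested, 4 rose and 1 fell in ish (median 0.17), and 2 rose and 1 fell in ish2 (median 0.05). That is 5 of 5 called in ish and 3 of 5 in ish2, beside 78.6% and 65% of all tested genes. RASGRP2, a calcium-responsive exchange factor that prefers RAP1, averaged 2.50 CPM in ish with Dox and 8.86 without (log2 fold change -1.82, SE 0.10), and fell by 0.74 in ish2. RASGRP3 averaged 2.46 CPM with Dox and 0.467 without in ish (2.38, SE 0.22), and rose by 1.43 in ish2. The ubiquitous exchange factors SOS1 and SOS2 rose by 0.14 and 0.32 in ish. In ish2 SOS1 rose by 0.11, and SOS2 (0.05) was not called. RASGRF2, a calcium-responsive exchange factor, rose by 0.17 in ish and was not called in ish2 (0.03).

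Of 8 GTPase-activating proteins tested, 2 rose and 3 fell in ish (median -0.18), and 2 rose and 2 fell in ish2 (median 0.00). That is 5 of 8 called in ish and 4 of 8 in ish2, beside 78.6% and 65% of all tested genes. RASA3 fell in both constructs (log2 fold change -1.15 in ish and -0.28 in ish2). RASA2 was not called in ish (log2 fold change 0.00, adjusted p = 0.936), and it rose by 0.80 in ish2 (SE 0.05, adjusted p = 1.48e-16). RASA1 rose in both, by 0.29 in ish and 0.43 in ish2. RASAL2 rose by 0.43 in ish and was not called in ish2 (0.01), and DAB2IP fell in both (-0.37 and -0.23).

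All 15 genes of lipid modification and trafficking were tested. In ish 9 rose and 4 fell (median 0.26), and in ish2 8 rose and 5 fell (median 0.32). That is 13 of 15 called in each construct, beside 78.6% of all tested genes in ish and 65% in ish2. ZDHHC9 and GOLGA7 form the enzyme that attaches palmitate to HRAS and NRAS, and both rose in ish (0.67 and 0.40). In ish2 GOLGA7 rose by 0.33, and ZDHHC9 had a value of -0.06 that was not called. LYPLA2, which removes such lipid tails, averaged 34.4 CPM in ish with Dox and 77.0 without (log2 fold change -1.16, SE 0.04), and 97.6 CPM in ish2 with Dox and 73.0 without (0.42, SE 0.03). Its relative LYPLA1 rose in both (0.24 and 0.39). ARL3, a GTPase that frees lipid-tailed cargo from the carrier PDE6D, rose by 0.52 in ish and fell by 0.31 in ish2.

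MRAS works with SHOC2 and PP1, and that complex was listed with LZTR1 and the SPRED proteins, which limit RAS signalling. Of these 10 genes, 1 rose and 8 fell in ish (median -0.15), and 3 rose and 4 fell in ish2 (median -0.01). Over all tested genes, 39.1% rose and 39.5% fell in ish, and 33.9% rose and 31.1% fell in ish2. SHOC2 fell by 0.15 in ish, where MRAS rose, and the PP1 catalytic genes PPP1CA and PPP1CB fell by 0.46 and 0.09, while PPP1CC (-0.04) was not called. In ish, 40%, 24.6% and 44.4% of tested genes fell at least as far as SHOC2, PPP1CA and PPP1CB. In ish2, where MRAS also rose, SHOC2 (0.04) and PPP1CA (-0.05) were not called. There PPP1CB rose by 0.24 and PPP1CC fell by 0.08. SPRED3 averaged 3.65 CPM in ish with Dox and 21.3 without (log2 fold change -2.54, SE 0.08), and 36.5 CPM in ish2 with Dox and 23.0 without (0.66, SE 0.05). SPRED1 also fell in ish (-1.34, SE 0.05) and rose in ish2 (0.56, SE 0.04), whereas SPRED2 fell in both (-0.63 and -0.38). CUL3, the ubiquitin ligase scaffold that works with LZTR1, rose by 0.49 in ish and fell by 0.12 in ish2. ERBB2IP, now called ERBIN, fell in both (-0.12 and -0.28).

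Of 13 effectors and scaffolds outside the RAF and PI3K kinases, 6 rose and 6 fell in ish (median 0.08), and 3 rose and 6 fell in ish2 (median -0.07). That is 12 of 13 called in ish and 9 of 13 in ish2, beside 78.6% and 65% of all tested genes. RIN1, an effector that activates the endocytic GTPase RAB5, averaged 4.51 CPM in ish with Dox and 17.8 without (log2 fold change -1.97, SE 0.08), and fell by 0.16 in ish2. RGL2, an exchange factor for RAL, fell by 1.02 in ish, with a value of -0.07 in ish2 that was not called. RALGDS, another exchange factor for RAL, fell in both (-0.46 and -0.26). PLCE1, a phospholipase bound by RAS, rose by 0.64 in ish and fell by 0.18 in ish2. RAPGEF2, an exchange factor for RAP1, rose in both (0.59 and 0.52), as did RIN2 (0.21 and 0.23). RASSF1, a tumour suppressor that binds RAS-like proteins, was not called in ish (0.08) and fell by 0.31 in ish2.

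**Figure D4:**
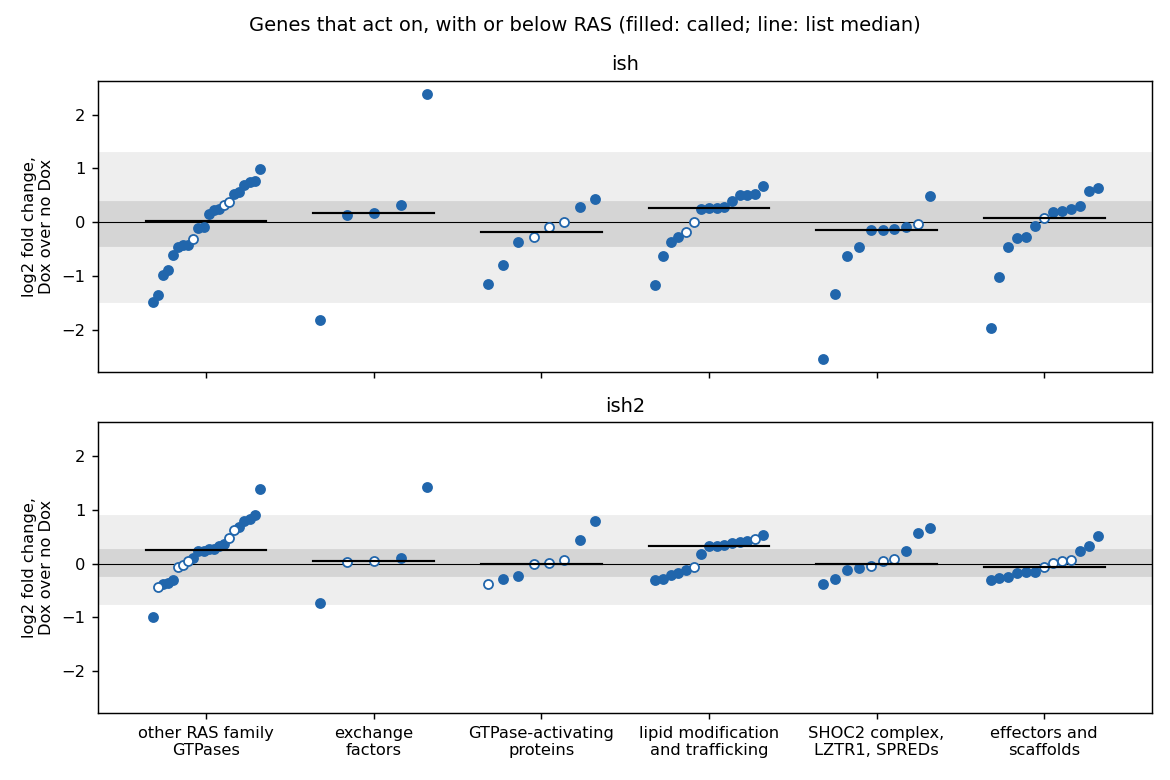
Log2 fold change of Dox over no Dox for each tested gene of the 6 lists, in ish (top) and ish2 (bottom); filled points were called, open points were not, and lines are list medians. Grey bands span all tested genes as before; the list medians run from -0.18 to 0.26 in ish and from -0.07 to 0.32 in ish2.

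The genes whose log2 CPM followed each member most closely over the 12 libraries were found by Pearson's r among 11556 genes. These values describe only these libraries, which share groups and so are not independent points. For NRAS they were CLIC1 (r = 0.9992), WNT5A (0.9991) and TMTC3 (0.9990). WNT5A, a secreted WNT ligand, averaged 8.68 CPM in ish with Dox and 81.0 without, and 168.4 CPM in ish2 with Dox and 93.5 without. For MRAS they were DESI2 (0.9984), NCALD (0.9982) and ARMCX3 (0.9981). NCALD, a neuronal calcium sensor, averaged 192.0 CPM in ish with Dox and 38.6 without. For RRAS they were LRRC4B (0.9963), VMO1 (0.9962) and COPG2 (0.9942), for RRAS2 NRBF2 (0.9936), SMAD4 (0.9936) and HIPK3 (0.9897), and for HRAS HLA-H (0.9940), MAFF (0.9932) and TMED5 (0.9923).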

How the data were processed

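The authors deposited raw read counts per gene symbol for 12 libraries. Stranded mRNA libraries were sequenced as 75-base read pairs, per the labels' protocols. Per the submitters' processing notes, the tools were Subread 1.6.3 with featureCounts, STAR 2.7.3a and Trim Galore 0.6.4, and the build GRCh38. The annotation and strand setting behind the counts were not given in the sources used here. In the table, 5 entries of unassigned reads name no gene, made up 21.0% to 24.4% of each library's total and were left out. Column headers were matched to titles by treatment and replicate number, with Sh1 taken as ish.

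The filter filterByExpr kept 15206 genes and dropped 11279. With TMM scaling, edgeR 4.0.16 (R 4.3.3) gave all contrasts from a single quasi-likelihood model of the 4 groups, with Benjamini-Hochberg adjustment over all tested genes and calls at an adjusted p under 0.05. The fit was also run on simulated counts with planted changes and independent libraries. That run checks the code and cannot show whether the replicates here are technical. SE is the absolute log2 fold change over the square root of F, an approximation. Shares were tested with exact permutation (SciPy 1.17.1). Reference mRNA is the longest GENCODE 29 principal transcript with a RefSeq match. The members, lists and tests were chosen with earlier results of these data known. Named genes are the members, NT5E, neighbours within 5000 bases, up to 4 genes per list and construct with the smallest p, and the 3 genes most like each member (mean log2 CPM of at least 1, prior count 2). SHOC2, PPP1CA, PPP1CB, PPP1CC and SCP2 were named after their values were seen. Some genes and sequences that this rule covers are not reported here. Of 88 list entries, 2 matched by an older symbol. Alternatives were other size factors, no filter, DESeq2 1.42.0, fewer libraries, a replicate block, other lengths and leaving out each library.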

Additional observations from a re-analysis of the deposited data

Results flagged for a closer look

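For all 5 genes the Dox effect differed between the constructs by the test of the difference itself. The effect in ish2 minus that in ish was 2.51 for NRAS, 1.58 for RRAS, 0.59 for HRAS, -0.52 for RRAS2 and -2.98 for MRAS on the log2 scale. With 3 libraries a group, no group was large enough to look for a single outlying library.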

How the results depend on the processing

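The Dox effects of the 5 genes in ish and ish2 and their differences (15 results) kept direction and call under all 265 alternatives run. NRAS ran from -1.99 to -1.96 in ish and from 0.51 to 0.54 in ish2, and MRAS from 3.21 to 3.30 in ish. Without Dox, the NRAS value of ish2 over ish became called in edgeR with DESeq2-style size factors (0.08), but not in DESeq2 itself. Leaving out each library in turn, it ran from 0.05 to 0.08 and that of MRAS from -0.09 to 0.00, and the cause was not tested. With the length of all annotated exons, the change in share in percentage points became -1.27 for HRAS, -23.7 for NRAS, 8.81 for RRAS2 and 37.7 for MRAS in ish, and 8.57 for NRAS and -7.61 for RRAS in ish2. The ratio of summed levels became 0.797 for all 5 genes, 0.434 for HRAS and NRAS and 1.24 for RRAS, RRAS2 and MRAS in ish, and 1.33 for HRAS and NRAS and 0.967 for the other group in ish2. These moves follow from the longer lengths. Leaving out each library, the ish2 share change of RRAS2 ran from -0.0547 to 0.615 and the ish2 ratio of RRAS, RRAS2 and MRAS from 0.995 to 1.02, so neither has a set direction. The sums were added after seeing the data. Same-numbered replicates did not deviate together (correlations from -0.0798 to 0.0295, with 3 of 12 libraries closest to their own number), and the replicate block gave 11926 calls in ish and 9835 in ish2, against 11945 and 9883, and changed no member's call. Levels of lowly read list genes (RASGRP3) are limited by depth.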
